A study of Gossypium hirsutum with 7 samples.

Results

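The genes described here are the cotton NAC transcription factors named NAC2, NAC5 and NAC8. They were read by 3 probe sets from 2 genes, of 23977 cotton probe sets on the array and 520 genes with a probe set of their own in the annotation. A brighter and a dimmer probe set read the gene named NAC2 (LOC107962533), and 1 probe set reads a gene that carries both other names (LOC107892421) and is written NAC5/NAC8 below. A further gene named NAC8 (LOC107961891) had no probe set of its own in the annotation and was not analysed here. The genes were chosen by name, but with group differences of these same arrays in view, namely low NAC2 in over-expressing ovules and high NAC5/NAC8 in silenced ovules. Their values are therefore given as a description, without p-values.

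Whole ovules of upland cotton, Gossypium hirsutum, were taken at 0 days post anthesis (flowers open that day), as the first fibre cells bulge from the ovule surface. The species is allotetraploid and usually carries an A and a D copy of a gene. The groups were transgenic ovules over-expressing GhHD-1 (3 arrays), transgenic ovules with GhHD-1 silenced (2 arrays) and wild-type ovules (2 arrays). GhHD-1 encodes a homeodomain protein, and the study asked which genes it may regulate at fibre initiation. Each sample was hybridised to 1 Affymetrix cotton array. Nothing in the sources used here gives the constructs, their promoters, the number of transgenic lines or any pooling of plants. Arrays within a group are labelled biological replicates, and no label says whether they came from separate plants. The level of GhHD-1 itself is not reported here, because the annotation used pairs it with none of the probe sets.

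NAC proteins are a large family of plant transcription factors, with a conserved DNA-binding domain at the N terminus and a variable C-terminal part that often activates transcription. In Arabidopsis, members of the family set organ boundaries, switch on secondary wall synthesis in fibres and vessels, drive leaf senescence, and respond to drought, salt and abscisic acid. Cotton fibres are single epidermal cells that later lay down a thick cellulose wall, so the family is of interest in this tissue both for wall formation and for stress responses.

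Values are log2 intensities, so 1 unit is a 2-fold difference. The lowest 5% of probe sets on each array lay below 3.50 to 3.67, and values near 4 stand close to that floor. Replicate agreement was uneven. The silenced arrays differed from each other by a median of 0.12 log2 units over probe sets, against 0.23 for the wild-type arrays. Over-expression replicate 2 stood apart from its group, at least 1 unit above both other over-expression arrays at 371 probe sets (1.55%), against 3 such probe sets for replicate 1 and 22 for replicate 3. In the other direction, replicate 1 was at least 1 unit below both others at 75 probe sets, replicate 2 at 68 and replicate 3 at 7. The wild-type arrays also differed, and each comparison with wild type rests on both. The mean of 42 spike-in control probe sets was 8.10 on wild-type replicate 2, 6.55 on silenced replicate 2 and 5.08 to 5.41 on the other arrays. Over all probe sets wild-type replicate 2 correlated at 0.981 with wild-type replicate 1, and at 0.991 and 0.992 with over-expression replicates 1 and 3. Wild-type replicate 1 correlated at 0.987 and 0.986 with the silenced arrays, and at 0.977, 0.981 and 0.983 with over-expression replicates 1, 2 and 3. A reporter control probe set read 5.91, 8.59 and 8.81 in over-expression, 9.73 and 9.84 in silenced, and 5.09 and 11.88 in wild-type ovules. All 4 MADS-box probe sets taken as ovule and carpel markers were bright, between 8.82 and 13.65 on every array. The single pollen marker (G9) stayed near the floor, at 3.67 to 4.46, and no green-tissue marker was annotated. The mean of 16 fibre and epidermis probe sets was 7.41 to 7.72 in over-expression, 7.48 to 7.51 in silenced and 7.27 to 7.73 in wild-type ovules. Among them Rac13 and 1 CelA1 probe set were near the floor. The mean of 9 probe sets with names of maturing embryo or seed was 6.55 to 6.75 in over-expression, 6.68 to 6.70 in silenced and 6.51 to 6.70 in wild-type ovules. This mean joins unlike levels. The dimmer LEGB probe set, vicB, Mat5-D and LegA averaged 3.23, 3.32, 3.48 and 4.10, near the floor. The brighter LEGB probe set, Lea5-D and MAT averaged 9.72, 11.09 and 12.30.

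NAC2 was lower in over-expressing ovules than in either other group, by about the same amount at both of its probe sets. The brighter probe set read 6.33, 6.99 and 7.33 in over-expression, 8.34 and 8.50 in silenced, and 8.58 and 7.90 in wild-type ovules. Every over-expression array was thus below every other array, while the silenced and wild-type arrays overlapped. Group means were 6.88 ± 0.51 (SD, n = 3) in over-expression, 8.42 ± 0.11 (SD, n = 2) in silenced and 8.24 ± 0.48 (SD, n = 2) in wild-type ovules. The difference from silenced ovules was -1.54 (SE 0.32), a 2.90-fold lower signal, and that from wild type was -1.35 (SE 0.32), a 2.56-fold lower signal. Silenced ovules differed from wild type by 0.18 (SE 0.35), which is within the spread of the arrays. In whole ovules, less RNA per cell and fewer cells that express a gene cannot be told apart.

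The dimmer NAC2 probe set read 5.63, 6.14 and 6.15 in over-expression, 7.53 and 7.24 in silenced, and 7.70 and 6.82 in wild-type ovules. It gave the same order of groups, with no overlap between over-expression and the rest. Over-expression differed by -1.41 (SE 0.28) from silenced and by -1.29 (SE 0.28) from wild-type ovules, and silenced differed from wild type by 0.12 (SE 0.31). The difference from wild type depended on which wild-type array was used: it was -0.85 without wild-type replicate 1 and -1.73 without replicate 2. At the brighter probe set the same omissions gave -1.02 and -1.69. The 2 probe sets ran 0.70 to 1.26 units apart over the 7 arrays, with a mean gap of 0.97 and an SD of 0.21. Both end in _s_at, which marks sets that can read several related transcripts, and the A and D copies of NAC2 may be mixed in their values.

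**Figure D1:**
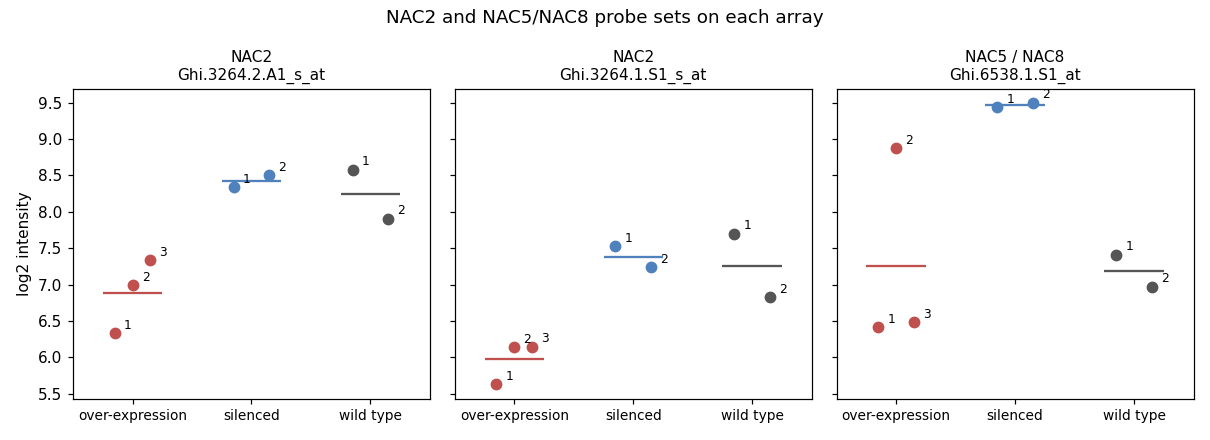
Log2 intensity (vertical axis) of the 3 probe sets on each array, by group (left, the brighter NAC2 probe set; middle, the dimmer); points are arrays labelled with their replicate number and bars are group means. All over-expression points of NAC2 lie below the other groups, and NAC5/NAC8 is high on both silenced arrays and on over-expression replicate 2.

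NAC5/NAC8 had its highest signal in silenced ovules and a wide spread within over-expression. It read 6.41, 8.87 and 6.48 in over-expression, 9.43 and 9.50 in silenced, and 7.41 and 6.97 in wild-type ovules. The silenced arrays were above all others and within 0.07 units of each other. Over-expression replicates 1 and 3 were below both wild-type arrays, whereas replicate 2 was above them by more than a unit and lay only 0.56 below the lower silenced array. Means were 7.26 ± 1.40 (SD, n = 3) in over-expression, 9.47 ± 0.05 (SD, n = 2) in silenced and 7.19 ± 0.31 (SD, n = 2) in wild-type ovules.

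Silenced ovules differed from wild type at NAC5/NAC8 by 2.28 (SE 0.76), a 4.85-fold higher signal. It was 2.495 without wild-type replicate 1 and 2.06 without replicate 2. Of 23977 probe sets, 5 including this one were higher in silenced ovules by as much. Over-expression differed from silenced ovules by -2.21 (SE 0.70), a 4.63-fold lower signal, and 32 probe sets including this one were lower by as much. Without over-expression replicate 2 that difference was -3.02. Nothing is read from these counts of probe sets, since the gene was chosen with its high silenced values in view. Over-expression and wild type differed by 0.07 (SE 0.70), and without over-expression replicate 2 the sign turned, to -0.74. No over-expression array lay near the group mean of 7.26.

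The 2 genes thus had different patterns over the same arrays. NAC2 was similar in silenced and wild-type ovules and low in over-expression, whereas NAC5/NAC8 was high in silenced ovules and lower in wild-type ovules and on over-expression replicates 1 and 3. The groups of arrays did not overlap for 3 of 3 probe sets, all lower, between over-expression and silenced ovules, where 16.1% of all probe sets were lower without overlap. They were lower without overlap for 2 of 3 between over-expression and wild type (9.81% of all), and higher without overlap for 1 of 3 between silenced and wild type (23.6% of all). Nothing is read from these counts, since the genes were chosen on these differences and the comparisons share arrays.

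In limma's fit across all 23977 probe sets, with Benjamini-Hochberg adjustment and a threshold of 0.05, 0 of the 3 probe sets were called in any comparison. The share of all probe sets called was 0.0209% between over-expression and silenced ovules, 0.00417% between over-expression and wild type and 0% between silenced and wild type. At an unadjusted p under 0.05 these shares were 12.1%, 10.4% and 14.5%. Nothing is read from the members' calls, since the fit tests the differences that chose them.

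The rest of the NAC family on the array serves as background. The RefSeq table lists 21 genes with a name starting NAC, of which 7 had a probe set here, 2 of them the genes above. The other 5 genes, NAC4, NAC6, NAC7, NAC10 and NACL2 (also named nst3), had 9 probe sets, and 0 of these 9 were called by limma in any comparison. Since only 0.0209%, 0.00417% and 0% of all probe sets were called, nothing is read from this 0 of 9. At an unadjusted p under 0.05 there was 1 between over-expression and silenced ovules, 1 between over-expression and wild type, and 0 between silenced and wild type. The shares of all probe sets were 12.1%, 10.4% and 14.5%. Median differences of the 9 were 0.04, 0.17 and 0.15 in that order of comparisons, beside medians of 0.01, 0.02 and 0.02 over all probe sets.

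NAC7 came closest to the threshold, with the direction opposite to that of NAC2 and NAC5/NAC8. Its brighter probe set read 9.24, 9.26 and 8.94 in over-expression, 8.30 and 8.31 in silenced, and 8.44 and 9.25 in wild-type ovules. The over-expression arrays were above the silenced arrays without overlap, as at 17.8% of all probe sets. The wild-type arrays spanned most of the distance between them. Over-expression differed from silenced ovules by 0.84 (SE 0.24, limma adjusted p = 0.236). With arrays weighted by their agreement the difference was 0.77 and passed (limma adjusted p = 0.0354). That weighted fit called 5.04% of all probe sets in this comparison, against 0.0209% without weights, so nothing is read from the pass. The dimmer NAC7 probe set gave a smaller difference of 0.22 (SE 0.13, limma adjusted p = 0.570) in that comparison.

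NAC10 read 6.07, 5.71 and 5.72 in over-expression, 5.50 and 5.71 in silenced, and 5.003 and 5.63 in wild-type ovules. Over-expression differed from wild type by 0.52 (SE 0.21, limma adjusted p = 0.472), with 0.08 units between the nearest arrays of the 2 groups. NAC6 read between 3.67 and 4.10 on all arrays, close to the floor. NACL2, whose other name nst3 it shares with the Arabidopsis NAC factor that switches on secondary walls in fibres, read 4.33 to 5.30 at its brightest probe set. Its remaining 2 probe sets averaged 3.27 and 2.98, at the floor.

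**Figure D2:**
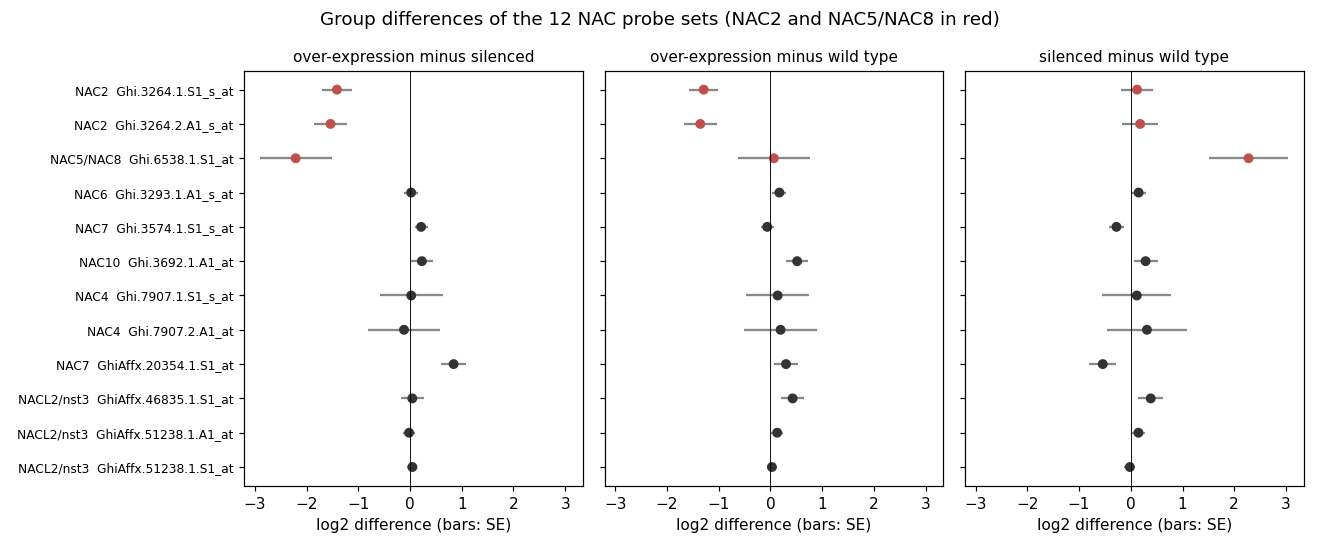
Log2 differences between groups (horizontal axes; bars are the moderated SE) for all 12 probe sets of NAC-named genes, with NAC2 and NAC5/NAC8 in red. NAC2 lies between -1.54 and -1.29 in both comparisons of over-expression, NAC5/NAC8 at 2.28 in silenced minus wild type, and most other probe sets lie near 0.

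NAC4 shared with NAC5/NAC8 the high value on over-expression replicate 2. Its brighter probe set read 5.65, 8.29 and 6.25 in over-expression, 6.63 and 7.07 in silenced, and 6.77 and 6.30 in wild-type ovules. The dimmer one read 4.56, 6.64 and 4.64 in over-expression, 5.35 and 5.16 in silenced, and 5.47 and 4.81 in wild-type ovules. At both, replicate 2 was above every other array, and the other over-expression arrays were below the lowest wild-type array. Unlike NAC5/NAC8, NAC4 was not high in the silenced group, where its brighter probe set differed from wild type by 0.31 and its dimmer one by 0.12.

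The distance of over-expression replicate 2 above the higher of replicates 1 and 3 was 2.39 units at NAC5/NAC8, and 35 of 23977 probe sets including this one stood as far or farther above. It was 2.04 and 1.99 units at NAC4. At NAC2 replicate 2 was not above both others, with -0.0049 and -0.34 units. NAC7 and NAC10 did not share the high value either, with replicate 2 at most 0.02 units above both others.

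**Figure D3:**
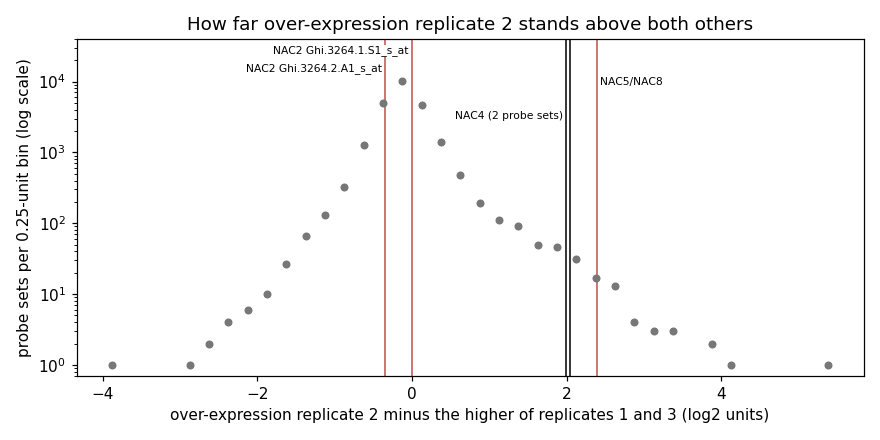
Number of probe sets (vertical axis, log scale) by the distance of over-expression replicate 2 above the higher of replicates 1 and 3 (horizontal axis, log2 units); points are bin counts over 23977 probe sets. NAC5/NAC8 at 2.39 and NAC4 at 2.04 and 1.99 lie in the upper tail, and both NAC2 probe sets lie at or below 0.

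Over all 23977 probe sets, 371 (1.55%) stood at least 1 unit above both other over-expression arrays on replicate 2. Of the 324 probe sets with a gene name, 15 did. Beside NAC4 (2 probe sets) and NAC5/NAC8 these were ACO1, WRKY24, RAV1, ACS3/ACS6, MYB, MPK3 (2 probe sets), Lea14-A, SusA1, Aux4, MFS and CBF17, and those described next were picked after their values were seen. ACO1, whose enzyme turns ACC into ethylene, read 11.84 at its brighter probe set on replicate 2 and 7.90 and 8.51 on the other over-expression arrays, while its dimmer probe set stayed between 6.17 and 7.30 on all arrays. ACS3/ACS6, an ACC synthase that supplies this ACC, read 11.29 there and 7.96 and 9.37 on the others. The WRKY factor WRKY24 read 8.72 there and 4.46 and 6.22 on the others, and 8.29 on wild-type replicate 1. The MAP kinase MPK3 read, at the brighter of its 2 probe sets among these 15, 9.76 there and 7.38 and 7.95 on the others, and 10.84 on wild-type replicate 1. On wild-type replicate 1, NAC5/NAC8 was 0.44 above replicate 2, a smaller gap than at WRKY24 and at this MPK3 probe set. The other MPK3 probe set among the 15 read 6.33 and 6.13 on the wild-type arrays. Further probe sets named MPK3 were not among the 15. Over all arrays they read 5.33 to 6.42, 5.09 to 5.88, 5.97 to 7.05, 3.38 to 4.74 and, at the set also named MPK6, 9.39 to 9.61. The mean of 44 probe sets of abscisic acid and stress genes was 7.88 on over-expression replicate 2, 7.35 and 7.55 on replicates 1 and 3, 7.50 and 7.54 in silenced, and 7.72 and 7.54 in wild-type ovules. The 44 include WRKY24, RAV1, Lea14-A and both MPK3 probe sets of the 15, so this mean in part repeats genes picked for a high replicate 2. The part of these signals in the NAC5/NAC8 value of replicate 2 was not tested.

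The named genes with the profile most like each NAC gene were found by the root mean square distance between profiles over the 7 arrays, after each was centred on its mean, among 270 named probe sets with a mean of at least 5. The points share arrays and normalization, so the distances are a description. A fully flat profile would lie at 1.26 from NAC5/NAC8 and at 0.79 from NAC2, close to the medians given below. The medians are therefore no benchmark of likeness. For NAC5/NAC8, the nearest was RAV1, at the brightest of its 3 probe sets, a factor with AP2 and B3 DNA-binding domains, at a distance of 0.24 log2 units against a median of 1.30. RAV1 read 5.52, 8.35 and 6.24 in over-expression, 8.66 and 8.74 in silenced, and 7.17 and 6.26 in wild-type ovules. When all 19694 probe sets with a mean of at least 5 were compared, named or not, none was nearer to NAC5/NAC8 than RAV1. The other RAV1 probe sets were dimmer and flatter. One read between 5.13 and 6.14 and the other between 4.13 and 4.84, each with its highest values in silenced ovules.

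After RAV1 came a gene named MYB (0.48), MYB1 (0.63), the homeobox gene HB4 (0.73) and the late embryogenesis gene Lea14-A (0.80), whose proteins protect cells under water loss. The MYB probe set shared both features of NAC5/NAC8, reading 5.43, 7.91 and 6.003 in over-expression, 7.81 and 7.90 in silenced, and 7.001 and 6.48 in wild-type ovules. MYB1 and HB4 shared the high silenced values more than the high replicate 2. MYB1 read 7.90, 8.69 and 8.06 in over-expression, 10.00 and 9.99 in silenced, and 9.003 and 8.08 in wild-type ovules. HB4 averaged 9.25 ± 0.38 (SD, n = 3) in over-expression, 10.53 ± 0.16 (SD, n = 2) in silenced and 9.41 ± 0.16 (SD, n = 2) in wild-type ovules. Lea14-A was highest on over-expression replicate 2, at 8.70, and next highest on the silenced arrays, at 8.29 and 8.49.

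For NAC2 the nearest named probe set was the dimmest of FLA19, at 0.37 against a median of 0.83. FLA19 and FLA4 encode cell-surface glycoproteins of the fasciclin-like arabinogalactan family, which act in cell adhesion and wall structure. The dimmer probe set of NAC2 itself was nearer, at 0.19, and 6 probe sets without a name were also nearer than FLA19. FLA4 (0.42), the other FLA19 probe sets (0.45 and 0.48) and 1 of the 2 probe sets of COL5-D (0.48) followed. FLA19 read 5.28, 6.002 and 5.77 in over-expression, 6.93 and 6.58 in silenced, and 6.54 and 6.29 in wild-type ovules. As at NAC2, all over-expression arrays were below the others, but the silenced arrays were also above both wild-type arrays, unlike at NAC2. FLA4 averaged 10.21 ± 0.38 (SD, n = 3) in over-expression, 11.79 ± 0.04 (SD, n = 2) in silenced and 11.15 ± 0.19 (SD, n = 2) in wild-type ovules, and its silenced and wild-type arrays did not overlap either.

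**Figure D4:**
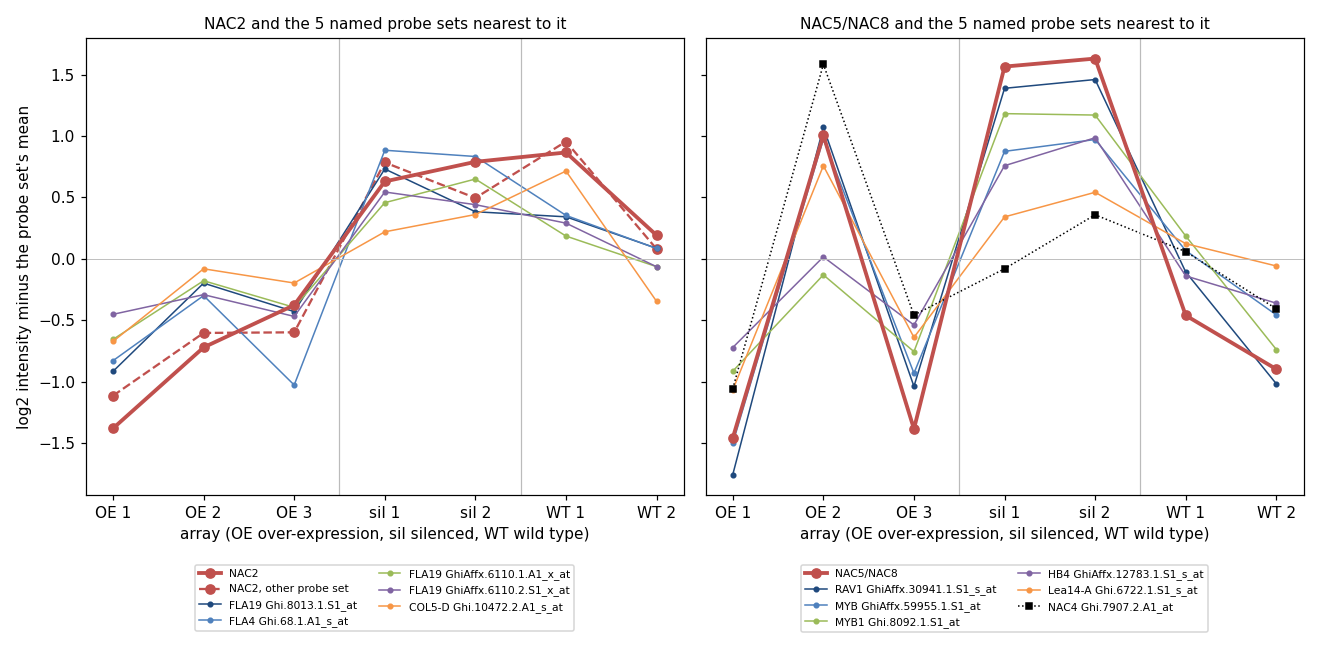
Log2 intensity minus each probe set's mean (vertical axis) over the 7 arrays, for NAC2 (left) and NAC5/NAC8 (right) with the 5 named probe sets nearest to each; NAC4 is added on the right, and lines only join the points of 1 probe set. RAV1 follows NAC5/NAC8 at a distance of 0.24, and NAC4 shares its high value on over-expression replicate 2 but not those of the silenced arrays.

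Gene lists for processes in which NAC factors act are given beside all probe sets. Over all 23977, limma called 0.0209%, 0.00417% and 0%, so nothing is read from 0 calls in a list. An unadjusted p under 0.05 was reached by 12.1%, 10.4% and 14.5% of all, and their medians were 0.01, 0.02 and 0.02. These values follow the order of comparisons given next. Whether a list differs from all probe sets was not tested. Of 44 probe sets of abscisic acid and stress genes, limma called 0 in any comparison, with 7, 4 and 11 at an unadjusted p under 0.05 and medians of 0.06, -0.01 and -0.11 for over-expression minus silenced, over-expression minus wild type and silenced minus wild type. The ethylene response factor ERF3 had the smallest p between the transgenic groups, at a difference of 0.69 (SE 0.16, limma adjusted p = 0.185). ERF8 differed by -0.76 (SE 0.18, limma adjusted p = 0.187) and WRKY15 by 0.55 (SE 0.14, limma adjusted p = 0.211).

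Of 22 secondary wall probe sets, most of them fasciclin-like genes whose roles are not limited to secondary walls, limma called 0, with 5, 8 and 6 at an unadjusted p under 0.05 and medians of -0.06, -0.18 and 0.08 in the same order. FLA4 and FLA19, near neighbours of NAC2 above, had the smallest p between the transgenic groups. FLA4 differed by -1.58 (SE 0.22, limma adjusted p = 0.0891) and FLA19 by -0.90 (SE 0.14) and -0.96 (SE 0.17) at the 2 probe sets with the smallest p (limma adjusted p = 0.122 and 0.133). Of 9 senescence-linked probe sets, here only ACC oxidase and ACC synthase genes of ethylene synthesis, limma called 0, with 2, 0 and 2 at an unadjusted p under 0.05 and medians of 0.13, -0.01 and 0.03. ACO3 differed between over-expression and silenced ovules by 1.51 (SE 0.33, limma adjusted p = 0.172), ACO1 at its dimmer probe set by -0.72 (SE 0.23, limma adjusted p = 0.288) and ACS, at a probe set near the floor, by -0.23 (SE 0.11, limma adjusted p = 0.498).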

How the data were processed

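RNA of 7 whole-ovule samples was measured on 1-colour Affymetrix arrays, 1 sample per array. The authors deposited log2 intensities, 1 value per probe set and array. R 2.7.1, limma and RMA are named, with their roles unstated, per the submitters' processing notes. RMA, as usually run, equalises arrays by quantiles and compresses low signals. From 24132 rows, 103 AFFX and 52 RPTR control probe sets were set apart and 23977 were tested. Genes were named through the platform annotation and the RefSeq table of assembly Gossypium_hirsutum_v2.1: 697 probe sets had 1 gene, 46 several and 23234 none listed, all 697 matched, and 324 (246 genes) carried a name other than a locus number. Coordinates are left out, as no build is named in the files, and no sequences were used.

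Differences were fitted with limma 3.58.1 in R 4.3.3 on all 7 arrays (1 mean per group, eBayes defaults, 4 residual and 3.01 prior degrees of freedom) and p-values were adjusted (Benjamini-Hochberg) over the 23977 probe sets of a contrast; they measure only the spread between these samples. The number of arrays limits the precision. The fit was tested on simulated data. These had normal noise of equal spread on all arrays and a shift in the silenced group only. No simulated array stood apart from its group, as over-expression replicate 2 did, so the test does not cover that case. The genes and lists were chosen with earlier results of these data known, and name starts in the lists were adapted to the annotation's spelling; 1 of the 9 seed list probe sets (MAT, SAMS) is a methionine adenosyltransferase. Named were all NAC probe sets, the 5 nearest profiles of each NAC gene, and, from each list of processes, the 3 probe sets with the smallest p between the transgenic groups. No wider NAC list by gene product could be made, since the table used holds no products. A plan to compare probe sets ending in plain _at had no effect, as neither NAC2 probe set does. Alternatives were a replicate block, only the groups compared, a trended or robust prior, cyclic loess, median centring, a mean of 6 or more, array weights, an adjusted p of 0.01, and leaving out each array.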

Additional observations from a re-analysis of the deposited data

Results flagged for a closer look

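The reporter control probe set RPTR-Ghi-A06498-1_at, which lies outside the cotton genes, read 4.39 to 4.66 in over-expression, 9.99 and 10.15 in silenced, and 4.08 and 4.59 in wild-type ovules. Silenced ovules exceeded wild type by 5.73 log2 units. Whether the high NAC5/NAC8 value of over-expression replicate 2 is an outlier was not tested.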

How the results depend on the processing

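Over the 9 differences of the 3 NAC2 and NAC5/NAC8 probe sets, 131 of 135 values under the alternatives moved by less than the residual SD of the probe set. Many of these could not move, since a changed prior or an array left out of another group does not alter a difference of means. The residual SD of NAC5/NAC8 was 1.00, so its change from -2.21 to -3.02 without over-expression replicate 2 counts as less. The tally is therefore no measure of robustness. The 4 others were of the dimmer NAC2 probe set and came from leaving out a wild-type array: over-expression minus wild type then ranged from -1.73 to -0.85, and silenced minus wild type from -0.31 to 0.56. The sign changed in 6 values, all at differences near 0 in the fit of all arrays. The distance of NAC5/NAC8 to RAV1, a value added after seeing the data, stayed between 0.21 and 0.26.

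The number of probe sets called between over-expression and silenced ovules was 5. It was 0 with the replicate block and at an adjusted p of 0.01, 9 with median centring, 238 with only the 2 groups in the fit, 1209 with array weights, and 0 to 238 when 1 array was left out (238 without either wild-type array, 37 without over-expression replicate 2, 0 without any of the others). Between over-expression and wild type it was 1, then 0 with the replicate block, only the 2 groups, cyclic loess, array weights or an adjusted p of 0.01, and 0 to 475 when 1 array was left out (475 without wild-type replicate 2, 0 without any of the others). Between silenced and wild type it was 0, then 7 with a robust prior and 0 to 73 when 1 array was left out (73 without wild-type replicate 1, 35 without replicate 2). Of NAC2 and NAC5/NAC8 probe sets, the 0 called between over-expression and silenced ovules became 1 with only the 2 groups, 3 with array weights and 0 to 1 when 1 array was left out; against wild type it became 0 to 1 in over-expression when 1 array was left out. Between over-expression and silenced ovules, 0.993% of all probe sets were called with only the 2 groups or without either wild-type array. The share was 5.04% with array weights and 0.154% without over-expression replicate 2. Between over-expression and wild type it was 1.98% without wild-type replicate 2. The calls of NAC2 and NAC5/NAC8 test the differences that chose the genes, so nothing is read from them. Of the other NAC probe sets, 1 was called between over-expression and silenced ovules with array weights, where 5.04% of all probe sets were. The median of the other NAC probe sets between silenced and wild type was 0.15, and -0.28 over those with a mean of 6 or more. The cause of these changes was not tested.

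Replicate numbers are not stated to mark a shared plant, day or batch. Deviations of same-numbered arrays correlated across probe sets at -0.31 and -0.22 for over-expression with wild type, 0.15 and 0.05 for over-expression with silenced, and 0.10 for silenced with wild type, so the numbers were not taken to pair the arrays.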
